A study of Mus musculus with 25 samples.

Results

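The enzymes that methylate histone H3 at lysine 9 (H3K9), together with the proteins that recruit, stabilize or read them, were followed in mouse two-cell embryos through 10 genes chosen by symbol out of 55375 genes in the count table. No measured value entered the rule, but the choice was made with earlier results of these data known. All 10 genes were found, and all 10 passed the filter of at least 1 read on average over the libraries. They were the writers *Ehmt2* (G9a) and *Ehmt1* (GLP) with their zinc finger partners *Wiz* and *Zfp644*, the writer *Setdb1* with its cofactor *Atf7ip* and its corepressor *Trim28*, the pericentromeric writers *Suv39h1* and *Suv39h2*, and the reader *Cbx5* (HP1α). RNA sequencing (RNA-seq) covered 25 libraries of 11 groups, each library made from a pool of 5 to 10 embryos collected 28 to 29 h after insemination or activation.

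The reference group was *in vitro* fertilized (IVF) embryos (4 libraries) of C57BL/6N oocytes and DBA/2 sperm. All other groups were somatic cell nuclear transfer (SCNT) embryos, in which a wild-type BDF1 cumulus cell nucleus replaced the chromosomes of a BDF1 oocyte enucleated in cytochalasin B. SCNT embryos cultured in cytochalasin B after activation were left without mRNA (control SCNT, 2 libraries) or received 10 pL of 1500 ng/μL mRNA of an H3K9 demethylase, *Kdm3a* (SCNT-*Kdm3a*, 2) or *Kdm4d* (SCNT-*Kdm4d*, 2). SCNT embryos cultured in latrunculin A (LatA) for 8 h after activation instead were left untreated (LatA control, 2) or received the histone deacetylase inhibitor trichostatin A (TSA, 25 nM for 8 h; 2 libraries), a G9a inhibitor at 1 μM for 24 h (RK-701, 3; A366, 2), or TSA with RK-701, A366 or UNC0638 (2 each). Oocyte donors were 4 to 20 weeks old. The IVF embryos and the SCNT donor nuclei thus had the same F1 background, but the oocytes came from different strains, so that oocyte strain and method cannot be told apart. SCNT embryos were all female whereas IVF pools held both sexes, which bears on the X-linked *Suv39h1*. No sequencing batch or date was given for the libraries.

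Methylation of H3K9 marks silent chromatin. G9a and GLP act as a heterodimer that places mono- and dimethylation in euchromatin, and WIZ and ZNF644 (mouse ZFP644) bring the dimer to its sites. SETDB1 trimethylates H3K9 at retroelements, where TRIM28 is recruited by KRAB zinc finger proteins, and ATF7IP keeps SETDB1 in the nucleus and protects it from degradation. SUV39H1 and SUV39H2 trimethylate pericentromeric repeats, to which HP1α binds. H3K9 methylation carried over with the donor nucleus is a known barrier to gene activation in SCNT embryos, and the G9a inhibitors act on the protein products of *Ehmt2* and *Ehmt1*.

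The sequence upstream of the genes for the inhibited enzymes is shown because their RNA levels set the main contrasts below. RefSeq (GRCm38.p6, the mm10 build used for the reads) gave windows of 250 bases before the annotated start for all 10 genes. The window of *Ehmt1* lies at chr2:24919610-24919859 on the minus strand and that of *Ehmt2* at chr17:34898224-34898473 on the plus strand, both written 5′ to 3′ on the strand of the gene, with GC boxes (GGGCGG, or CCGCCC on the other strand) in capitals.
Ehmt1: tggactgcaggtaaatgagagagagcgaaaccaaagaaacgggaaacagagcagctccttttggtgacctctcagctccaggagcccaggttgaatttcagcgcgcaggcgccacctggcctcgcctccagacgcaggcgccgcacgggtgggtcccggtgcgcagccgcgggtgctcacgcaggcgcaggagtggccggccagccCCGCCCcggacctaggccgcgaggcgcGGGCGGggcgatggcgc
Ehmt2: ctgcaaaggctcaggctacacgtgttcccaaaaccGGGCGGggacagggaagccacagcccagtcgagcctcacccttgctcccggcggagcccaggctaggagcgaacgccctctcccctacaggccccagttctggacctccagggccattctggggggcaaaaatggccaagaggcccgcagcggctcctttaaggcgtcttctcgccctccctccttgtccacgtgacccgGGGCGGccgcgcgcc
Each window held 2 GC boxes. The *Ehmt1* window had 26 CpG dinucleotides and 69.2% G + C, and the *Ehmt2* window had 18 CpG dinucleotides and 67.6% G + C, against a median of 6 CpG over 32851 such windows of the genome. A GC box was present in 32.7% of all windows and in 14 of the 17 windows of the 10 genes. Neither printed window held CCAAT (33.8% of all windows), TATAAA (12.4%), the ETS letters CCGGAAG (6.91%) or TAATCC (6.25%), each searched on both strands. A second annotated start of *Ehmt2*, with its window at chr17:34898720-34898969, had 36 CpG and 4 GC boxes. These letters describe the windows and were not tied to any difference between groups.

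Between 6662727 and 21188688 read pairs per library (median 13994840) were assigned to genes. The 8 oocyte markers and all but 1 of the 7 two-cell markers were detected in every group, the exception being *Duxf3*, which had 0 reads in control SCNT, TSA and TSA + UNC0638 libraries. Of 12 cumulus cell markers, 9 stayed under 10 normalized counts in every library, among them the granulosa genes *Foxl2*, *Fshr* and *Inha* with at most 0.418, 0.478 and 0.491. The other 3, *Amhr2*, *Serpine2* and *Tnfaip6*, reached 64.6, 51.2 and 11.3, and the list summed to 65.7 to 96.8 in IVF, 68.4 to 69.3 in control SCNT and 80.1 to 82.2 in LatA control libraries. The injected mRNAs matched their labels: *Kdm3a* stood at 3470 and 3120 normalized counts in SCNT-*Kdm3a* against 205 and 201 in control SCNT, and *Kdm4d* at 18500 and 12500 in SCNT-*Kdm4d* against 2.52 and 0.718. In pooled embryos, fewer cells of a type and less RNA per cell cannot be told apart, and a normalized count is a share of each library's RNA.

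Per gene length, the members spanned a wide range of levels. In TPM (reads per gene length, scaled to the same total in each library), IVF embryos had *Trim28* at 137 ± 6.16 (SD, n = 4), *Zfp644* at 69.9 ± 11.6 and *Cbx5* at 62.5 ± 6.41. *Suv39h2* (39.4 ± 7.71), *Atf7ip* (33.9 ± 1.37), *Setdb1* (31.5 ± 3.88), *Suv39h1* (27.6 ± 4.06) and *Ehmt1* (21.3 ± 2.96) followed, and neighbours within these 5 genes overlapped between libraries. *Ehmt2* at 5.93 ± 0.512 TPM and *Wiz* at 2.9 ± 0.997 TPM were the lowest of the 10, each apart from its neighbour in every library. In control SCNT embryos *Ehmt2* stood at a mean of 21.9 TPM and in LatA control embryos at 22.4 TPM, below *Ehmt1* (38.2 and 42.9) in every library and below *Setdb1* (30.8 and 23.1) with overlap in LatA control alone, while *Trim28* was again the highest at 183 and 203 TPM and *Wiz* the lowest at 3.45 and 5.06 TPM.

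**Figure D1:**
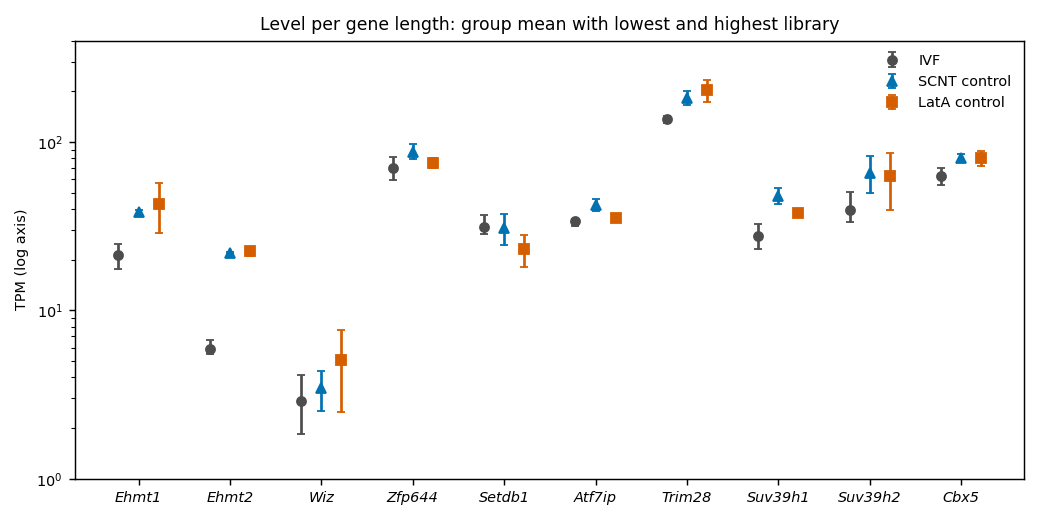
Levels of the 10 genes per gene length in IVF (n = 4), control SCNT (n = 2) and LatA control (n = 2) embryos, as TPM on a log axis, with points for group means and bars from the lowest to the highest library. *Ehmt2* lies at 5.93 TPM in IVF embryos and at 21.9 and 22.4 TPM in the untreated SCNT groups, while *Trim28* is the highest gene in all 3 groups.

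*Ehmt2*, the gene for G9a (plus strand, chr17:34898469-34914051), was the gene of the set that set SCNT embryos apart from IVF embryos. In normalized counts (CPM, the count relative to the library total, after TMM scaling between libraries), the IVF libraries held 10.1, 9.32, 9.66 and 11.4. Control SCNT libraries held 29.4 and 33.6, and LatA control libraries 30.8 and 30.4. All 21 SCNT libraries, treated or not, lay above the highest IVF library, the lowest of them at 16.0. The share of all genes whose libraries lie apart in this way was not counted, here or for the genes and pairs of groups below. *Ehmt2* was 3.11-fold higher in control SCNT than in IVF embryos (log2 1.64 ± 0.21 SE, 95% interval 1.21 to 2.07, edgeR adjusted p = 2e-06), and 3.02-fold higher in LatA control embryos (log2 1.6 ± 0.21, adjusted p = 2.97e-06). Across all genes, 21.3% passed the adjusted p of 0.05 in control SCNT against IVF and 21.6% in LatA control against IVF, while 3 of the 10 genes did in each comparison. The call of *Ehmt2* held with each of the 25 libraries left out in turn, with log2 values of 1.54 to 1.72 and 1.56 to 1.66. Marker lists moved in the same comparisons. Of the 8 oocyte markers, 5 were lower than IVF in control SCNT (median log2 −0.92), and 6 were lower and 1 higher in LatA control embryos (median −0.96). Of the 6 two-cell markers tested, 3 were lower in control SCNT (median −2.05) and 4 in LatA control embryos (median −1.92). The part of these shifts in the values of the 10 genes was not tested.

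*Ehmt1*, the gene for GLP (minus strand, chr2:24789928-24919614), was higher in untreated SCNT embryos by a smaller margin. The IVF libraries held 51.8, 49.3, 60.9 and 42.5 normalized counts. Control SCNT libraries held 74.3 and 79.5, all above IVF, whereas the LatA control libraries at 59.7 and 103 differed widely and the lower of them fell within the IVF range. The difference was 1.5-fold in control SCNT (log2 0.59 ± 0.2, adjusted p = 0.0339) and 1.58-fold in LatA control embryos (log2 0.66 ± 0.2, adjusted p = 0.0163). These calls rested on single libraries: the first was lost when IVF replicate 1, 2 or 4 or either control SCNT library was left out (adjusted p up to 0.166), and the second without IVF replicate 4 or without LatA control replicate 2, when its log2 value was 0.22.

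**Figure D2:**
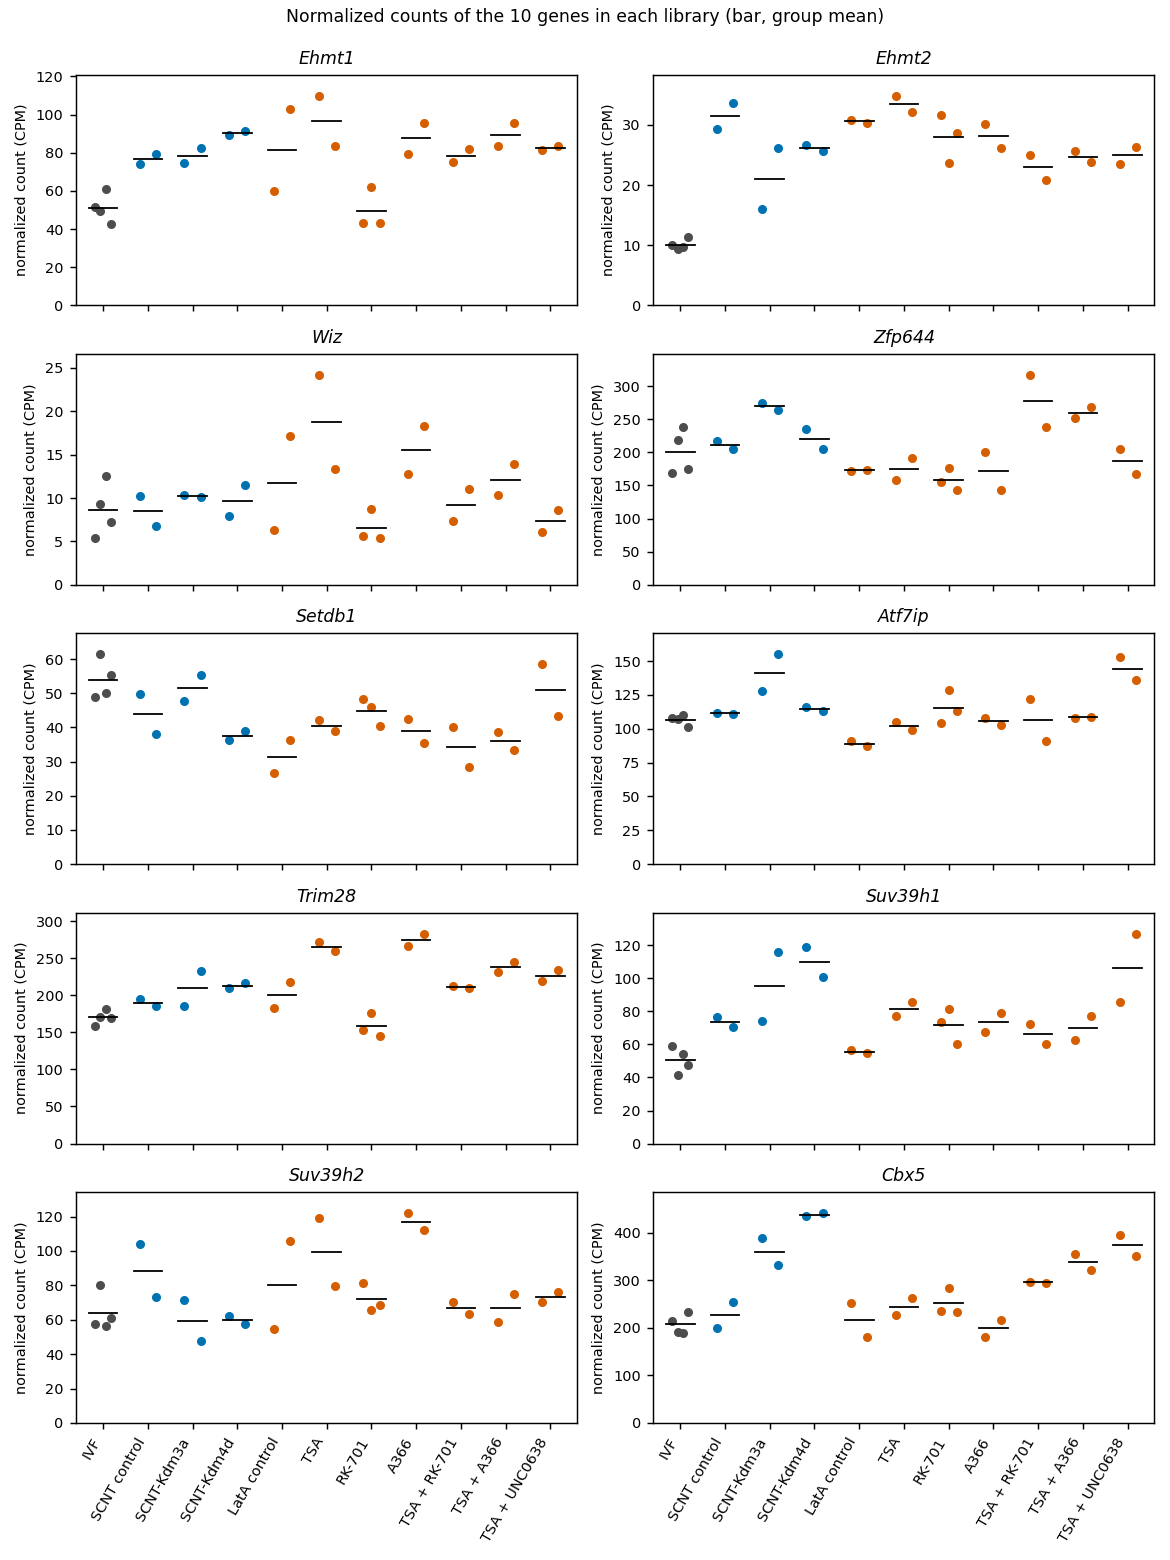
Normalized counts (CPM after TMM scaling) of the 10 genes in each of 25 libraries, 1 panel per gene, with points for libraries, bars for group means, IVF in grey, cytochalasin B groups in blue and LatA groups in orange. All SCNT points of *Ehmt2* lie above the IVF points, the highest of which is 11.4, while *Ehmt1* is near the IVF level in the RK-701 libraries (43.4, 62.1 and 43.3).

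The balance of the G9a and GLP transcripts was compared within each library as the TPM ratio of *Ehmt2* to *Ehmt1*, since both enzymes form 1 complex. The ratio was 0.273, 0.266, 0.223 and 0.378 in IVF libraries, 0.557 and 0.593 in control SCNT and 0.725 and 0.417 in LatA control libraries, so the untreated SCNT libraries did not overlap with IVF. On the log2 scale the mean was −0.83 ± 0.33 (SD, n = 4, both untreated groups pooled) in untreated SCNT and −1.84 ± 0.32 (SD, n = 4) in IVF embryos. The difference was 1.01 (two-sided exact permutation test, p = 0.0286, the smallest value that 4 against 4 libraries allow). It follows from the *Ehmt2* and *Ehmt1* differences of the same libraries given above and is not separate evidence. The RK-701 libraries had ratios of 1.03, 0.536 and 0.93, with 2 of them above every other library. One library each of SCNT-*Kdm3a* (0.301), TSA + A366 (0.352) and TSA + RK-701 (0.359) fell within the IVF range, and their partners (0.446, 0.43 and 0.468) lay above it. No corresponding difference was found for the other pair of paralogs: the log2 ratio of *Suv39h2* to *Suv39h1* was 0.53 ± 0.46 in untreated SCNT and 0.51 ± 0.45 in IVF embryos (n = 4 each, two-sided exact permutation test, p = 0.886), and its sign of difference turned when single libraries were left out (−0.18 to 0.23). In SCNT-*Kdm4d* embryos this ratio was −0.7 ± 0.08 and in A366 embryos 0.85 ± 0.25 (SD, n = 2 each), at the far ends of the group means.

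**Figure D3:**
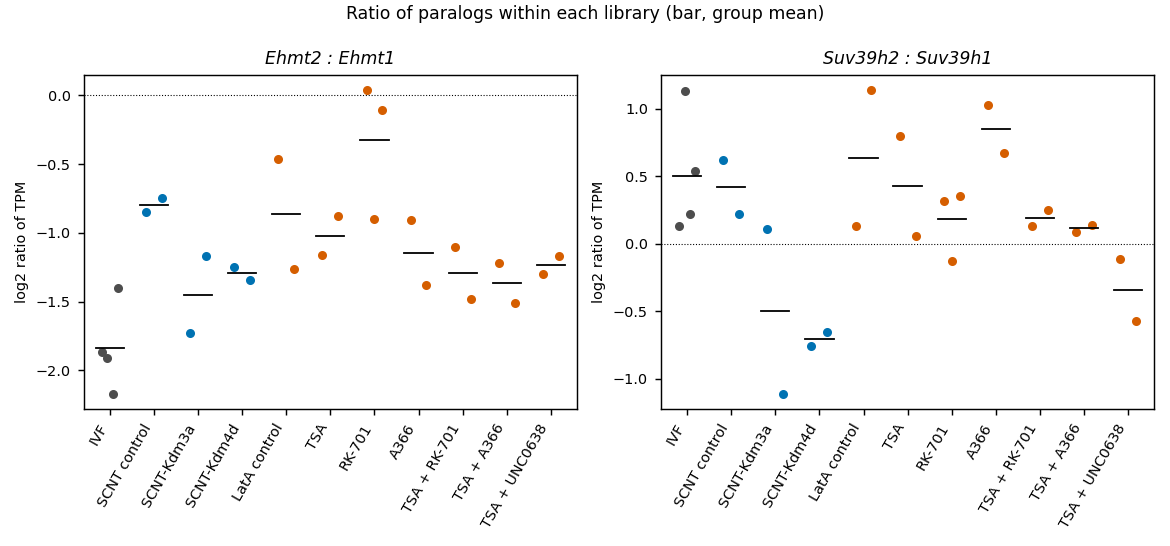
Log2 ratio of TPM of *Ehmt2* to *Ehmt1* (left) and of *Suv39h2* to *Suv39h1* (right) in each library, with points for libraries and bars for group means. The left panel shows IVF means at −1.84 below all SCNT group means, and the right panel shows IVF and untreated SCNT libraries mixed.

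The zinc finger partners of G9a and GLP did not follow *Ehmt2*. *Zfp644* held 169, 219, 239 and 175 normalized counts in IVF, 217 and 205 in control SCNT and 172 and 174 in LatA control libraries, and it passed the test against IVF in none of the 10 SCNT groups. *Wiz* was the least expressed member, with 35 to 285 reads per library. It held 5.43, 9.26, 12.6 and 7.25 normalized counts in IVF libraries, 10.2 and 6.78 in control SCNT and 6.35 and 17.1 in LatA control libraries. The groups overlapped, and the log2 differences from IVF were −0.05 (95% interval −0.84 to 0.75) and 0.41 (−0.36 to 1.19).

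Among the SETDB1 genes, *Setdb1* itself was lower in LatA control embryos. It held 48.8, 61.4, 50.0 and 55.4 normalized counts in IVF libraries, 49.8 and 38.1 in control SCNT and 26.8 and 36.2 in LatA control libraries. The LatA control value was 1.72-fold lower than IVF (log2 −0.78 ± 0.21, adjusted p = 0.00703), and the call was lost without LatA control replicate 1 (log2 −0.58) and with scaling to total counts alone. In control SCNT embryos the log2 difference of *Setdb1* was −0.3 (95% interval −0.71 to 0.12, adjusted p = 0.319), and 18 of the 21 SCNT libraries lay below the lowest IVF library. *Atf7ip* held 101 to 110 normalized counts in IVF, 112 and 111 in control SCNT and 90.9 and 87.2 in LatA control libraries, with no call. *Trim28* was at 159 to 182 in IVF, 195 and 185 in control SCNT and 183 and 218 in LatA control libraries. The untreated SCNT libraries of *Trim28* lay above all IVF libraries, but the log2 differences of 0.16 and 0.24 did not pass (adjusted p = 0.446 and 0.236). Opposite-strand genes overlap 6.95% of the exon bases of *Setdb1*, and the counts were taken not to use strand.

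*Suv39h1* was higher in control SCNT than in IVF embryos by a narrow margin, whereas *Suv39h2* and *Cbx5* did not pass the test in either untreated group. *Suv39h1* (minus strand, chrX:8061171-8074760) held 59.2, 41.4, 54.3 and 47.4 normalized counts in IVF, 76.5 and 70.8 in control SCNT and 56.5 and 54.5 in LatA control libraries. Its difference was 1.46-fold in control SCNT (log2 0.55 ± 0.2, adjusted p = 0.0497) and 0.14 on the log2 scale in LatA control embryos (95% interval −0.28 to 0.55). The first was called in 7 of the 25 fits with 1 library left out, and the sexes differed between the groups. *Suv39h2* held 57.5, 80.2, 56.1 and 61.3 in IVF, 104 and 73.0 in control SCNT and 54.7 and 106 in LatA control libraries, with no call. *Cbx5* held 189 to 234 in IVF, 200 and 255 in control SCNT and 253 and 181 in LatA control libraries, also with no call. Opposite-strand genes overlap 15.4% of the exon bases of *Suv39h1* and 9.98% of those of *Suv39h2*. Between the 2 untreated controls, none of the 10 genes passed the edgeR test (0.0116% of all genes did), and DESeq2 called none. Only *Setdb1*, with a log2 difference of −0.48 between LatA control and control SCNT, had an unadjusted p under 0.05. No share of all genes at that unadjusted threshold is given.

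Treated SCNT groups were also set against IVF embryos to see how far each gene stood from the fertilized level, and these comparisons share the 4 IVF libraries. Of 80 tests, 35 passed: 4 of 10 genes in SCNT-*Kdm3a* (19.3% of all genes), 4 in SCNT-*Kdm4d* (14.5%), 6 with TSA (21.7%), 2 with RK-701 (19.3%), 4 with A366 (22.1%), 4 with TSA + RK-701 (18.5%), 5 with TSA + A366 (16.3%) and 6 with TSA + UNC0638 (15%). *Ehmt2* passed in all 8 groups, with log2 values from 1.05 in SCNT-*Kdm3a* to 1.73 with TSA. It had a log2 value of 1.37 in SCNT-*Kdm4d* and 1.47 with RK-701 as well as with A366, so the G9a transcript stayed above the fertilized level under each treatment. *Ehmt1* passed in 7 of the 8 groups (log2 0.62 to 0.92), and in RK-701 embryos it was at the IVF level (log2 −0.04, 95% interval −0.41 to 0.32). *Cbx5* was higher than IVF in both demethylase groups (log2 0.8 and 1.08) and in all 3 co-treated groups (0.51, 0.71 and 0.85). *Suv39h1* was higher than IVF in both demethylase groups (log2 0.91 and 1.13), with TSA (0.69), with RK-701 (0.51) and with TSA + UNC0638 (1.08). *Trim28* was higher with TSA (0.64), A366 (0.69), TSA + A366 (0.48) and TSA + UNC0638 (0.41). *Setdb1* was lower than IVF with TSA + RK-701 (−0.66) and TSA + A366 (−0.58). *Suv39h2* was higher with TSA (0.64) and A366 (0.87), *Wiz* with TSA (1.1) and *Atf7ip* with TSA + UNC0638 (0.44). Some of these calls were often lost when 1 library was left out. *Setdb1* with TSA + A366 and *Trim28* with TSA + UNC0638 were each called in 8 of 25 such fits. *Atf7ip* with TSA + UNC0638 was called in 10 and *Suv39h2* with TSA in 14, and every other call in at least 20.

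**Figure D4:**
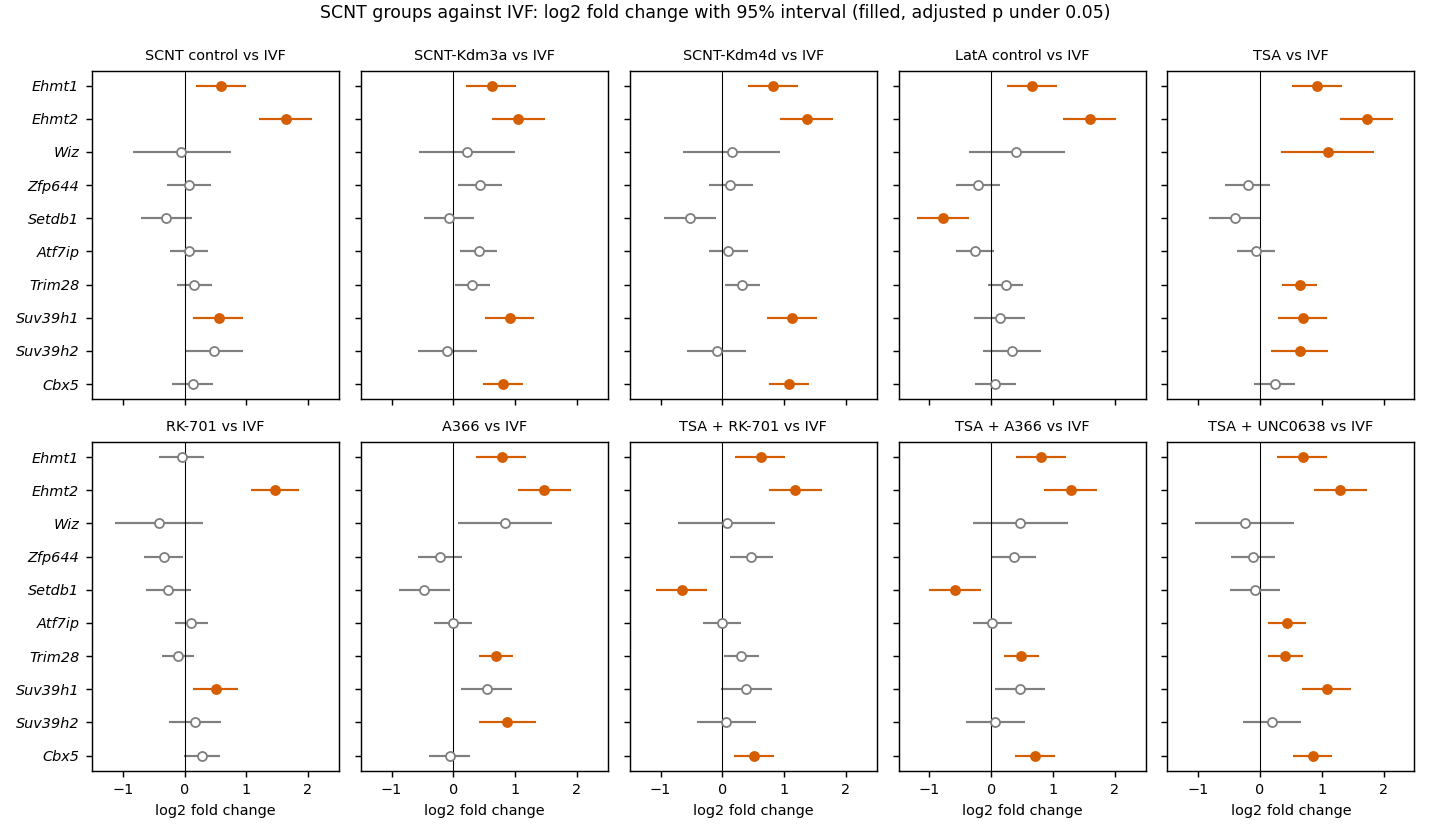
Log2 fold change of the 10 genes in each of 10 SCNT groups against the 4 IVF libraries, with bars for 95% intervals and filled points for an adjusted p under 0.05. *Ehmt2* is filled in all 10 panels, at 1.05 to 1.73, and *Ehmt1* in all but the RK-701 panel, where it is at −0.04.

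Injection of demethylase mRNA was compared with control SCNT embryos, the control that both injected groups share. *Cbx5*, which encodes the HP1α protein that binds methylated H3K9, was the gene of the set that differed. It held 200 and 255 normalized counts in control SCNT, 389 and 331 in SCNT-*Kdm3a* and 434 and 441 in SCNT-*Kdm4d* libraries. The groups did not overlap, but the share of all genes that separate 2 against 2 libraries was not counted. *Cbx5* was 1.58-fold higher in SCNT-*Kdm3a* (log2 0.66 ± 0.19, adjusted p = 0.032, with 6.14% of all genes called) and 1.93-fold higher in SCNT-*Kdm4d* embryos (log2 0.95 ± 0.19, adjusted p = 0.00369, with 5.15% called), and no other member passed the edgeR test. The SCNT-*Kdm3a* call was also lost under scaling by RLE factors or total counts, and both calls were lost without control SCNT replicate 1 (log2 0.77 and adjusted p = 0.149 in SCNT-*Kdm4d*).

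Among the writers, edgeR called none after injection, and DESeq2 called *Ehmt2* lower in SCNT-*Kdm3a* (adjusted p = 0.0373). In that comparison DESeq2 called 2404 of 25794 genes and edgeR 1585. *Ehmt2* held 16.0 and 26.2 normalized counts in SCNT-*Kdm3a* and 26.7 and 25.7 in SCNT-*Kdm4d* libraries, against 29.4 and 33.6 in control SCNT. The log2 differences were −0.59 (95% interval −1.09 to −0.08, edgeR adjusted p = 0.174) and −0.27 (−0.77 to 0.24). *Suv39h2* had log2 values of −0.58 and −0.57 (adjusted p = 0.226 and 0.254) and *Suv39h1* of 0.37 and 0.58 (adjusted p = 0.391 and 0.159). *Ehmt1*, *Setdb1*, *Zfp644*, *Atf7ip*, *Trim28* and *Wiz* had log2 values between −0.23 and 0.35. The summed level of the two-cell markers was 884 to 1099 normalized counts in SCNT-*Kdm3a* and 393 to 478 in SCNT-*Kdm4d* libraries, against 541 to 622 in control SCNT. This sum rests most on *Zfp352* and *Tcstv3*, with means of 4052 and 1564.28 reads per library. Of the 6 two-cell markers tested, 4 were higher in SCNT-*Kdm3a* (median log2 2.12), and 3 were higher and 1 lower in SCNT-*Kdm4d* (median 1.44). Their part in the higher *Cbx5* was not tested.

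Inhibitors of G9a act on the protein, and their comparison with LatA control embryos asked whether the target genes answered at the RNA level. *Ehmt2* did not pass the test with any inhibitor. It held 30.8 and 30.4 normalized counts in LatA control, 31.7, 23.7 and 28.7 with RK-701, 30.1 and 26.2 with A366 and 34.9 and 32.2 with TSA. Both A366 libraries lay below and both TSA libraries above the LatA control libraries, which stood close together, and the RK-701 libraries fell on both sides. How often libraries of all genes lie apart like this was not counted. The log2 differences were −0.13 with RK-701 (95% interval −0.58 to 0.33), −0.12 with A366 (−0.62 to 0.38) and 0.13 with TSA (−0.37 to 0.63), which leaves room for changes of that size in either direction.

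*Ehmt1*, in contrast, passed with RK-701 by a narrow margin. It held 43.4, 62.1 and 43.3 normalized counts with RK-701 against 59.7 and 103 in LatA control, so the highest RK-701 library lay above the lower control. The difference was 1.63-fold downward (log2 −0.71 ± 0.21, 95% interval −1.14 to −0.28, adjusted p = 0.0459), 1 of 10 genes beside 5.47% of all genes. This call rested on LatA control replicate 2, without which the log2 value was −0.27 (adjusted p = 0.675), and it was made in 7 of 25 fits with 1 library left out. With control SCNT as the reference it was not made either. *Ehmt1* held 79.5 and 95.8 with A366 (log2 0.11, 95% interval −0.36 to 0.59) and 110 and 83.4 with TSA (0.25, −0.23 to 0.73).

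With TSA alone none of the 10 genes passed the edgeR test (0.372% of all genes did), 2 had an unadjusted p under 0.05 and DESeq2 called none. With A366 alone none passed (0.132% of all genes did). DESeq2, which called 500 of 25794 genes there, called *Trim28* (edgeR log2 0.45, edgeR adjusted p = 0.254). *Trim28* was also the 1 member with an unadjusted edgeR p under 0.05, again without a share of all genes. With RK-701, DESeq2 called 2512 of 25794 genes (edgeR 1411), among them *Trim28* (edgeR log2 −0.35, edgeR adjusted p = 0.18) and *Ehmt1*. *Wiz* had a log2 value of −0.82 with RK-701 (95% interval −1.65 to 0.0) and *Setdb1* of 0.51 (adjusted p = 0.169). The 8 oocyte markers summed to 1951 to 2447 normalized counts in RK-701 libraries. The sums were 1049 to 1243 in LatA control, 1092 to 1403 in A366 and 1476 to 1851 in IVF libraries. The sum rests most on *Bmp15* and *Oosp1*, with means of 7811.52 and 5849.8 reads per library. Of these markers, 5 of 8 were higher and 0 lower with RK-701 than in LatA control, and the median of the list was 0.77. Among the 5 were *Oosp1* (log2 1.38), *Nlrp5* (0.94) and *Gdf9* (0.93), while *Mos* had a value of −0.89 without a call. Against IVF embryos, 1 of the 8 was higher and 1 lower with RK-701 (median −0.09). The part of this shift in the values of *Ehmt1*, *Wiz* and *Trim28* was not tested.

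**Figure D5:**
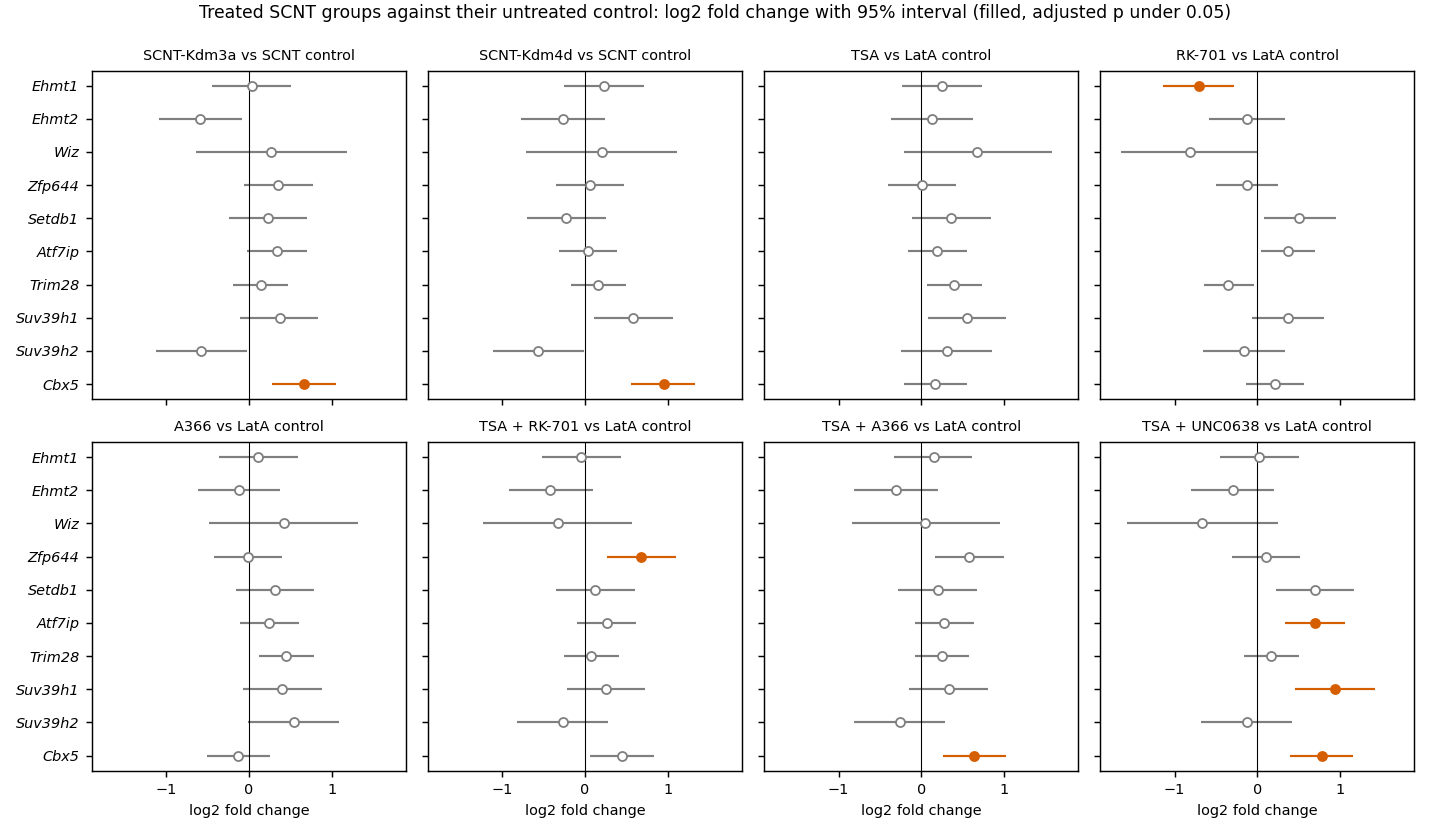
Log2 fold change of the 10 genes in each treated SCNT group against its untreated control, control SCNT for the mRNA groups and LatA control for the others, with bars for 95% intervals and filled points for an adjusted p under 0.05. *Cbx5* is filled in 4 of 8 panels at 0.64 to 0.95, and *Ehmt2* in none, with values from −0.59 to 0.13.

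Among embryos given TSA with a G9a inhibitor, *Zfp644* was higher with TSA + RK-701 and *Cbx5* with TSA + A366 and TSA + UNC0638, all against the same LatA control libraries. *Zfp644*, the zinc finger partner of G9a and GLP, held 317 and 239 normalized counts with TSA + RK-701 and 252 and 268 with TSA + A366, against 172 and 174 in LatA control and 205 and 168 with TSA + UNC0638. It was 1.6-fold higher with TSA + RK-701 (log2 0.68 ± 0.2, adjusted p = 0.03, 1 of 10 genes beside 9.65% of all genes) and had a log2 value of 0.58 with TSA + A366 (edgeR adjusted p = 0.0691, DESeq2 adjusted p = 0.0392). *Cbx5* held 356 and 322 with TSA + A366, 395 and 351 with TSA + UNC0638 and 296 and 295 with TSA + RK-701, all above the LatA control libraries of 253 and 181. It was 1.56-fold higher with TSA + A366 (log2 0.64 ± 0.19, adjusted p = 0.0287, 1 of 10 genes beside 9.21% of all genes), had a log2 value of 0.78 with TSA + UNC0638 (adjusted p = 0.00807) and one of 0.44 with TSA + RK-701 (adjusted p = 0.139).

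TSA + UNC0638 embryos had 3 of 10 genes past the test beside 9.03% of all genes. *Suv39h1* held 85.7 and 127 normalized counts against 56.5 and 54.5 in LatA control and was 1.92-fold higher (log2 0.94 ± 0.23, adjusted p = 0.0103). *Atf7ip* held 153 and 136 against 90.9 and 87.2 and was 1.62-fold higher (log2 0.7 ± 0.17, adjusted p = 0.011). *Setdb1* held 58.7 and 43.4 against 26.8 and 36.2, with a log2 value of 0.7 (edgeR adjusted p = 0.057, DESeq2 adjusted p = 0.0231). Two-cell markers summed to 1036 to 1051 normalized counts in these libraries against 346 to 380 in LatA control and 262 to 318 in the other co-treated groups, and 6 of the 6 markers tested were higher than in LatA control; their part in these values was not tested. All 5 calls of the co-treated groups were lost without LatA control replicate 2 and under scaling to total counts alone, which moved the median of all genes to −0.404, −0.392 and −0.352 with TSA + RK-701, TSA + A366 and TSA + UNC0638.

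The target genes did not pass under co-treatment. *Ehmt2* held 25.0 and 20.9 with TSA + RK-701, 25.6 and 23.9 with TSA + A366 and 23.5 and 26.4 with TSA + UNC0638, all 6 libraries below both LatA control libraries. The share of all genes that lie apart from LatA control like this was not counted. The log2 differences of −0.42 (95% interval −0.92 to 0.09), −0.31 and −0.3 did not pass (adjusted p = 0.307 for the first). *Ehmt1* held 75.0 and 81.9, 83.5 and 95.6, and 81.2 and 83.3, all within the range of the LatA control libraries, with log2 values of −0.05, 0.15 and 0.02. Whether TSA altered the response to RK-701 or A366 was tested as an interaction, and no member passed in either test (2.3% of all genes did for RK-701 and 1.88% for A366). Each interaction had 3 members with an unadjusted p under 0.05, without a share of all genes at that threshold beside it. DESeq2 called *Zfp644* for RK-701 (1391 of 25794 genes called) and *Suv39h2* and *Trim28* for A366 (1522 called). The edgeR values of these were 0.8 (adjusted p = 0.131), −1.11 (0.126) and −0.61 (0.164). For *Ehmt1* the interaction was 0.41 with RK-701 and −0.22 with A366, and for *Ehmt2* it was −0.42 and −0.32.

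The G9a inhibitors were compared with each other at the same dose and time in 4 pairs. RK-701 and A366 alone differed in 3 of 10 genes (12.9% of all genes), in each case with the lower level under RK-701. *Trim28* held 153, 176 and 145 normalized counts with RK-701 and 267 and 283 with A366, which do not overlap, a 1.74-fold lower level (log2 −0.8 ± 0.15, 95% interval −1.1 to −0.5, adjusted p = 0.000465). *Ehmt1* was 1.77-fold lower (log2 −0.82 ± 0.21, adjusted p = 0.00871), with 43.3 to 62.1 against 79.5 and 95.8. *Wiz* held 5.59, 8.72 and 5.45 against 12.8 and 18.3 (log2 −1.24 ± 0.4, adjusted p = 0.0369). The *Trim28* call held in 25 of 25 fits with 1 library left out, *Ehmt1* in 24 (lost without A366 replicate 2) and *Wiz* in 21. *Ehmt2* did not separate these inhibitors, with an interval of −0.46 to 0.45 around −0.01. Of the 8 oocyte markers, 5 were higher with RK-701 than with A366 (median log2 0.84), and their part in the lower values was not tested.

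Together with TSA, no member was called between the inhibitors, with 2 libraries per group. TSA + RK-701 against TSA + A366 had none of 10 genes called (0% of all genes, 998 genes at an unadjusted p under 0.05, none of them a member, and none of the 10 called by DESeq2). TSA + RK-701 against TSA + UNC0638 (1.21% of all genes called) and TSA + A366 against TSA + UNC0638 (1%) had none called by edgeR or DESeq2. In each, 4 members had an unadjusted p under 0.05, namely *Setdb1*, *Zfp644*, *Atf7ip* and *Suv39h1*. The share of all genes at that unadjusted p is not given for these pairs, so the 4 are read neither as a difference nor as a lack of one. Against TSA + UNC0638, the log2 values were −0.58 and −0.5 for *Setdb1*, 0.58 and 0.48 for *Zfp644*, −0.44 and −0.42 for *Atf7ip* and −0.69 and −0.61 for *Suv39h1*, the first value with TSA + RK-701 and the second with TSA + A366. For *Ehmt1* the differences between co-treated groups were −0.19 (95% interval −0.67 to 0.29), −0.07 (−0.55 to 0.41) and 0.12 (−0.35 to 0.6), and for *Ehmt2* −0.11 (−0.61 to 0.39), −0.12 (−0.62 to 0.39) and −0.01 (−0.51 to 0.49) on the log2 scale.

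Over the 11 groups, mean normalized counts of *Ehmt2* ran from 33.6 with TSA, 31.5 in control SCNT and 30.6 in LatA control down to 22.9 with TSA + RK-701, 21.1 in SCNT-*Kdm3a* and 10.1 in IVF embryos, and only the steps from LatA control to A366 and from SCNT-*Kdm3a* to IVF left no overlap between neighbours. *Ehmt1* ran from 96.5 with TSA to 76.9 in control SCNT with overlap at each step, followed by IVF at 51.1 and RK-701 at 49.6. *Cbx5* ran from 438 in SCNT-*Kdm4d*, apart from TSA + UNC0638 at 373, down to 207 in IVF and 199 with A366. *Trim28* ran from 275 with A366 and 265 with TSA to 170 in IVF and 158 with RK-701. As a description over 11 group means, which share a common scaling, *Ehmt1* went with *Trim28* (Pearson r = 0.87), *Wiz* with *Trim28* (0.83) and *Suv39h1* with *Cbx5* (0.77), while *Ehmt1* and *Ehmt2* had r = 0.56. Among 8454 genes with a mean of at least 10 normalized counts, the patterns most like *Ehmt1* were those of *Sppl3* (r = 0.966), *Hnrnpl* (0.946) and *Xiap* (0.937), and those most like *Ehmt2* were *Pde4a* (0.97), *Flna* (0.95) and *Acin1* (0.94).

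The 10 genes sit among 31 other genes of H3K9 methylation and heterochromatin, all tested, of which 4 were higher and 9 lower in control SCNT than in IVF embryos (median log2 −0.26, against 0.014 for all genes, of which 10.8% were called higher and 10.4% lower) and 6 higher and 12 lower in LatA control embryos (median −0.23, against 0.041 for all genes, of which 11.6% were called higher and 9.99% lower). Among the other methyltransferases, *Setdb2* had a log2 difference of −1.84 in control SCNT (adjusted p = 1.66e-05) and −1.31 in LatA control embryos (adjusted p = 0.000606). *Dnmt1*, the maintenance DNA methyltransferase, was higher by 0.71 and 0.62, and *Mphosph8*, the H3K9 methylation reader of the HUSH complex, had values of −0.92 and −0.68.

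*Atf7ip2*, a paralog of *Atf7ip*, moved in the opposite direction to *Ehmt2* between IVF and SCNT embryos. It held 371, 329, 338 and 341 normalized counts in IVF libraries against 89.4 and 61.4 in control SCNT and 73.8 and 84.6 in LatA control libraries (log2 −2.19, adjusted p = 3.5e-08, and −2.12, adjusted p = 6.59e-08). It held 285 and 460 in SCNT-*Kdm3a* and 327 and 318 in SCNT-*Kdm4d*, up by 2.31 (adjusted p = 1.84e-06) and 2.1 (adjusted p = 1.17e-05) on the log2 scale. With TSA + RK-701, TSA + A366 and TSA + UNC0638 the libraries held 251 to 328, with log2 values of 1.89 (adjusted p = 3.64e-05), 1.78 (3.79e-05) and 1.91 (8.57e-06), whereas TSA (0.45), RK-701 (0.67, adjusted p = 0.0565) and A366 (0.8, adjusted p = 0.126) alone did not pass. *Sumo2*, which encodes a modifier of TRIM28 and is counted here beside many near copies, was higher in both demethylase groups (0.97 and 1.07) and in the co-treated groups (1.59, 1.35 and 1.17). Of the 31 genes, 3 passed in SCNT-*Kdm3a*, 6 in SCNT-*Kdm4d*, 3 with RK-701, 7 with TSA + RK-701, 5 with TSA + A366 and 5 with TSA + UNC0638 against their controls, each to be read against the shares of all genes given above. With TSA and with A366 alone edgeR called none of the 31, with 1 and 2 genes at an unadjusted p under 0.05, and DESeq2 called 1 in each.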

How the data were processed

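RNA from pools of embryos was primed on poly(A) and sequenced as read pairs. After Trimmomatic and STAR (mm10), the authors deposited whole read counts per gene from featureCounts 1.6.2 (per the file header), without normalization. Counting was taken to ignore strand and to leave out pairs that overlapped more than 1 feature, settings that the methods of the paper do not state. The table held 55375 genes and 1755056 repeat copies, and the latter were not used here. A symbol was lacking for 241 genes.

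Counts were analysed with edgeR 4.0.16 (R 4.3.3), and tables were made with Python 3.11.15. The TMM factors ranged from 0.883 to 1.16. A quasi-likelihood model with 1 term per group was fitted to all 25 libraries over the 25794 genes on autosomes that averaged 1 read or more (common dispersion 0.136, prior degrees of freedom 12.6), and p values were adjusted over all genes by Benjamini and Hochberg. *Suv39h1*, on the X chromosome, was tested in the same fit with sex chromosomes (26817 genes). A call is an adjusted p under 0.05, and SE and 95% intervals come from the fit. Percentages of all genes are shares called, and members at an unadjusted p under 0.05 are not calls. Normalized counts are CPM after TMM, and TPM used exon lengths over autosomal genes. Ratios were compared by two-sided exact permutation tests with scipy 1.17.1. DESeq2 1.42.0, RLE and total-count scaling, other filters, references and sample sets and leaving out each library were alternatives. Against LatA control, DESeq2 called 3292 of 25794 genes with TSA + A366 (edgeR 2375) and 3354 with TSA + UNC0638 (edgeR 2329). The script was tested on simulated data. Depth was 6662727 to 21188688 read pairs per library, and counting error is only part of the spread, since replicates differed beyond sampling noise (chi-square per degree of freedom 6.68 to 56.96). The highest value was that of the 2 LatA control libraries, the reference of all inhibitor and co-treatment comparisons with a control. The next was 29.42, for the TSA libraries. Replicates are separate pools. The 10 genes and all lists were chosen with earlier results of these data known. Named genes were the 10 members, up to 4 called genes per other list, the 3 genes most like *Ehmt1* and *Ehmt2*, and the injected genes.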

Additional observations from a re-analysis of the deposited data

How the results depend on the processing

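The higher *Ehmt2* in both untreated SCNT groups kept its call under all 8 other settings and with each library left out. The 6 calls of untreated SCNT against IVF became 3 with the replicate block (3 to 6 with 1 library left out). The 2 calls after demethylase mRNA became 1 with RLE factors, with the block or with only the compared libraries, and 4 against both untreated controls (0 to 2 with 1 library left out, 0 without control SCNT replicate 1). The single inhibitor call was lost with the block, against the cytochalasin B control and with only the compared libraries (0 calls each), and DESeq2 made 3 (0 to 2 with 1 library left out). The 5 co-treatment calls became 0 with total counts, 1 against the cytochalasin B control and 0 with only the compared libraries (0 to 7 with 1 library left out, 0 without LatA control replicate 2, 3 without TSA + UNC0638 replicate 1). The 35 calls of treated SCNT against IVF became 23 with the block. Calls over all genes moved too. With the block they fell from 5606 to 3930 for TSA against IVF. For TSA + RK-701 against LatA control they fell from 2490 to 618 with only the compared libraries. With total counts they rose to 2865 there. Against both untreated controls they rose from 1585 to 2939 in SCNT-*Kdm3a*. The counts of member calls are to be read beside these. The 0 interaction calls of edgeR (3 members per test at an unadjusted p under 0.05) became 1 without a filter on low counts and 3 with DESeq2 (0 to 3 with 1 library left out, 3 without LatA control replicate 2). The 3 calls between inhibitors were 1 to 4 with 1 library left out, with 1 without A366 replicate 2.

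The *Ehmt2* to *Ehmt1* log2 ratio difference was 1.04 with control SCNT alone and 0.97 with LatA control alone (exact permutation p = 0.133 for both) and 0.88 to 1.15 with 1 library left out (exact permutation p = 0.0571). These are the smallest p those designs allow. The *Suv39h2* to *Suv39h1* difference of 0.02 was −0.09 with control SCNT alone and −0.18 to 0.23 with 1 library left out.

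Some log2 values that passed no test changed sign. For *Ehmt1*, TSA + RK-701 gave 0.03 against the cytochalasin B control and −0.39 to 0.39 with 1 library left out, TSA + A366 gave −0.14 with total counts and −0.20 to 0.59 with 1 left out, and TSA + UNC0638 gave −0.03 with RLE factors, −0.26 with total counts, −0.02 with DESeq2 and −0.32 to 0.46 with 1 left out. With 1 library left out, A366 ranged from −0.23 to 0.56 and the interactions from −0.03 to 0.75 (RK-701) and −0.66 to 0.12 (A366). For *Ehmt2*, RK-701 against A366 gave 0.01 with RLE factors, only the compared libraries or DESeq2, 0.02 with total counts and −0.10 to 0.11 with 1 library left out. The co-treated pairs then ranged from −0.24 to 0.01 (RK-701 and A366), −0.25 to 0.00 (RK-701 and UNC0638) and −0.09 to 0.08 (A366 and UNC0638). The cause of these changes was not tested.

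With total-count scaling the median log2 difference of all genes was 0.208 (control SCNT) and 0.289 (LatA control) against IVF, from 0.014 and 0.041 with TMM, and −0.33 (SCNT-*Kdm3a*) and −0.308 (SCNT-*Kdm4d*) against control SCNT, from −0.04 and −0.041. Replicate numbers did not pair the samples: over 111 same-numbered pairs of libraries the median correlation of deviations was −0.004, and 4 were over 0.1. Most groups had 2 libraries, so their spread was estimated from all groups, and a library left alone in its group was assumed to vary like the others. Intervals that reach about 0.5 to either side of the estimate on the log2 scale, and further for *Wiz*, limit what could be seen. No spike-in measured total RNA per embryo, and libraries primed on poly(A) can also reflect tail length. *Wiz*, with 35 to 285 reads per library, was the least precise member.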
